A study of Mus musculus with 4 samples.

Results

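Transcripts of homeobox factors outside the Hox clusters were examined in testes of mice 14 days after birth, in 2 Znhit1_KO and 2 CTRL libraries. The members were all genes of the deposited count table whose symbol is Alx, Barx, Cdx, Dlx, Emx, Irx, Lhx, Msx, Otx, Pax, Pitx, Vax, Vsx or the sine oculis family name followed by a number, or Nkx followed by 2 numbers. They came to 71 of 55335 genes, in 15 families. The members were chosen by symbol, and the family itself was selected on the fold changes of Znhit1_KO over CTRL in these same libraries, which were already known. The differences given here are therefore a description and no independent evidence that the family differed from other genes. The label holds only in part: Pax1 and Pax9 encode a paired domain without a homeodomain, and Pax2, Pax5 and Pax8 encode only part of a homeodomain.

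Genotype is labelled Znhit1_KO or CTRL, and all libraries carry the labels testis (tissue) and testis cells (cell type). Germ cells are named in the design text, but the protocol takes RNA from fresh testes, purifies mRNA with beads and describes no sorting. The labels name 2 independent biological replicates per genotype and do not say whether a library pools animals. The Cre driver or other means of disruption, the strain and the alleles behind CTRL are not given in the sources. ZNHIT1 belongs to the SRCAP chromatin remodeller, known for exchanging H2A for the variant H2A.Z, and the study's question was how its loss bears on gene expression.

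Homeobox genes encode transcription factors that bind short AT-rich DNA sites through the homeodomain, a helix-turn-helix fold. In the embryo they set the identity of organs, limbs, eye, brain and genital ducts, and in many other cells they are kept silent by Polycomb repression. Their promoters are often rich in CpG dinucleotides. In the mouse gonad a few have known roles. Lhx9 and Emx2 are needed for the genital ridge to form, Six4 acts upstream of Sry, Lhx8 is required for oocyte development, and Pax2, Pax8 and Lhx1 mark the mesonephric duct and the ducts derived from it.

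Promoter windows from RefSeq (GRCm38.p6, the same assembly as mm10), which run from 250 bases before to 50 after a gene's start, were found for 47 of the 71 members. The motif counted was the dinucleotide CG, which reads the same on both strands. The median number of CG per window was 20 over these members and 7.0 over all genes with a window. It was 20.5 over the 28 tested members with a positive log2 change and 20.25 over the 10 with a negative one, with no test made of the difference. The homeodomain core TAATTA, which is its own reverse complement, was present in 4 of 58 member windows (6.90%) and in 5.29% of all windows. CG number and direction did not pair up: Msx1 and Dlx1, with negative log2 changes, had 29 and 27 CG, and Lhx9, Pax8 and Nkx2-5, with positive ones, had 6, 7 and 9. Windows of Irx2, Lhx2 and Lhx8 are shown as examples that differ in CG number, and they stand for no direction. They do not span the range, as Emx1, Six2 and Nkx1-1 had 37 CG. Lhx2 has 2 windows, with a mean of 31.5 CG, and 1 is shown. Capitals mark CG in the windows shown. They lie at chr13:72628570-72628869 on the plus strand with 25 CG, chr2:38339031-38339330 on the plus strand with 34, and chr3:154330511-154330810 on the minus strand with 4. At least as many CG were found in 18.4%, 7.73% and 68.6% of all windows, in the same order.
Irx2: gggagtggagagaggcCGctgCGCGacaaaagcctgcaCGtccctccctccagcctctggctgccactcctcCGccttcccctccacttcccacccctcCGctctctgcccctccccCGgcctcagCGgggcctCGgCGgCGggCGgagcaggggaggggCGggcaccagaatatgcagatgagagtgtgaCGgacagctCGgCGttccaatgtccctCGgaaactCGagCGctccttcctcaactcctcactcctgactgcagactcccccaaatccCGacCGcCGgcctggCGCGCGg
Lhx2: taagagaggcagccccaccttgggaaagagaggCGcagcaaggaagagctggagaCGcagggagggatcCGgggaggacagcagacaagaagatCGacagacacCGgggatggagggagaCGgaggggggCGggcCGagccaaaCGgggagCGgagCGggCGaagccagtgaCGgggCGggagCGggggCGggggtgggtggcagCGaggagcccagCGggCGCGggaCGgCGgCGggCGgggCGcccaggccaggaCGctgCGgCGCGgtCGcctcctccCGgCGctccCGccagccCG
Lhx8: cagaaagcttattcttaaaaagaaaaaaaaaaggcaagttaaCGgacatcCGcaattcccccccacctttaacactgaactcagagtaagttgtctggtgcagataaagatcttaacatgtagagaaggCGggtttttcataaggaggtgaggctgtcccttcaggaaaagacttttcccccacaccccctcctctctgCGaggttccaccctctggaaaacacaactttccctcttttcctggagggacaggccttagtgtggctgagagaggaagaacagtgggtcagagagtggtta

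The estimated counts summed to between 136732861 and 157790457 per Znhit1_KO library and between 129531714 and 136178177 per CTRL library. Znhit1 itself stood at 3.15 and 2.14 CPM (counts scaled to library size with TMM factors) in Znhit1_KO replicates 1 and 2, against 17.3 and 31.9 CPM in CTRL replicates 1 and 2, lower in both libraries labelled Znhit1_KO. Spermatocyte markers had lower values in Znhit1_KO. All 9 had a negative log2 change (46.9% of all genes), 8 with no overlap between groups (21.3% of all genes). Their summed level ranged from 909.0 to 1390.5 CPM in Znhit1_KO and from 1703.9 to 3337 CPM in CTRL. Sertoli cell markers had higher values: 16 of 20 lay above both CTRL libraries in both Znhit1_KO libraries (21.8% of all genes). The 20 summed to between 9297 and 10841 CPM in Znhit1_KO and between 7771 and 7991 CPM in CTRL. Clu alone had 4987 and 4325 CPM in Znhit1_KO and 3582 and 3936 CPM in CTRL, so the sum depends much on 1 gene. In whole testes, fewer cells of a type and less RNA per cell cannot be told apart. Leydig markers summed to 60.8 and 101.1 CPM in Znhit1_KO and 40.1 and 63.5 CPM in CTRL, and macrophage markers to 22.1 and 41.0 CPM and 14.7 and 24.7 CPM, in the same order of groups and replicates. The part of these shifts in the homeobox values was not tested.

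Most homeobox factors were scarce in these testes. Of the 71 members, 68 had a count in at least 1 library, and Dlx5, Pax4 and Cdx4 had none. A mean of at least 1 CPM was reached by 25. Per transcript length, on the authors' TPM scale, which corrects for length and library size, Six5, Lhx2 and Vax2 were among the more abundant members. Six5, a sine oculis family factor encoded next to the myotonic dystrophy kinase gene Dmpk, had 20.9 and 14.9 TPM in Znhit1_KO, against 14.4 and 7.65 TPM in CTRL. Lhx2, a LIM-homeobox regulator of forebrain and eye, had 15.2 and 11.4 TPM in Znhit1_KO, against 11.1 and 7.24 TPM in CTRL. Vax2, which patterns the ventral eye, had 13.0 and 14.6 TPM in Znhit1_KO, against 7.97 and 8.48 TPM in CTRL. The ranges of Six5, Lhx2 and Vax2 over the 4 libraries overlapped and do not set an order among them.

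**Figure D1:**
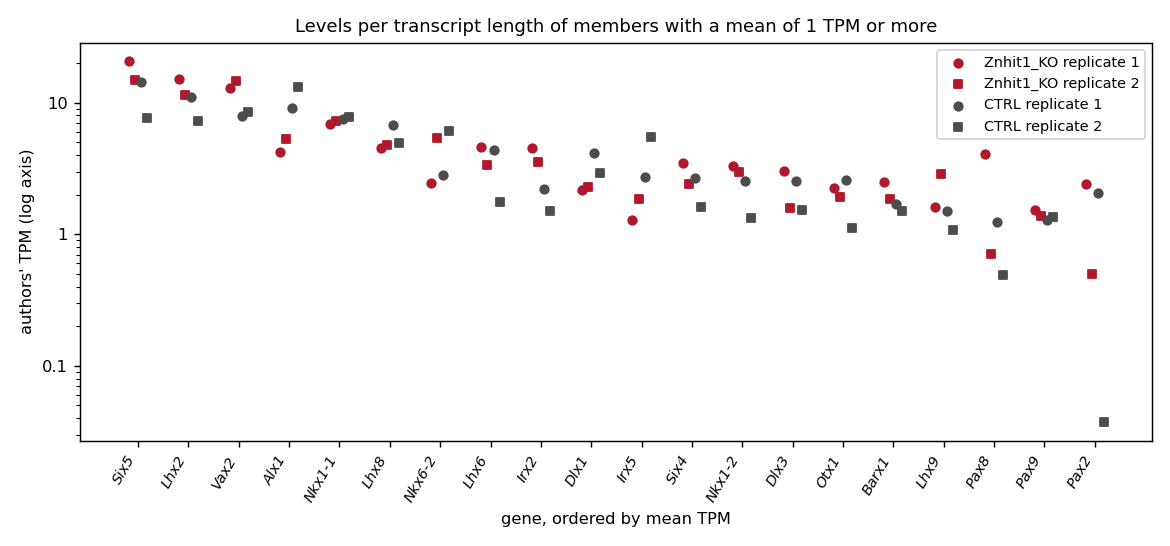
The authors' TPM (log axis) of 20 members with a mean of 1 TPM or more, ordered by mean, with red symbols for Znhit1_KO, grey for CTRL, circles for replicate 1 and squares for replicate 2. Six5, Lhx2 and Vax2 have the highest means of those plotted, and all their values lie above 7 TPM.

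Of the 71 members, 59 passed the filter on low counts and were tested among 24116 genes in all. A member that passed the filter through its Znhit1_KO libraries alone had to be higher there, so counts over these 59 do not stand for all members. The edgeR quasi-likelihood test called 0 of the 59 at an adjusted p of 0.05, as it called 0 of all genes (0.0%). At an unadjusted p under 0.05 there were 8 members (13.6%), against 10.7% of all genes. Of these, 6 had higher values in Znhit1_KO (2.99% of all genes), among them Alx4, Cdx1, Irx2, Nkx2-5 and Vax2, and Alx1 and Irx5 had lower ones (7.75% of all genes). DESeq2 called 4 members, 3 higher (0.404% of all genes), among them Cdx1 and Irx2, and Alx1 lower (3.67% of all genes), and limma-voom called 0. The same 4 are marked in the authors' deposited table, where 0.277% of all genes are marked up and 3.22% down. Since the 4 were in view when the family was proposed, nothing is read from that share.

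Cdx1, a caudal-type factor of axial patterning and of the gut lining, was marked higher in the authors' deposited table. It had 0.836 and 1.21 CPM in Znhit1_KO, against 0.296 and 0.187 CPM in CTRL, from counts of 132 and 168 and of 40 and 24. The groups did not overlap. The log2 change was 2.08 (SE 0.505; edgeR adjusted p of 0.312), and the authors' deposited table gives an adjusted p of 0.0309. Of its relatives, Cdx2 had counts of 15 and 9 in Znhit1_KO and 0 and 0 in CTRL, too few to be tested.

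Irx2, of the Iroquois family, had 4.29 and 3.51 CPM in Znhit1_KO, against 1.99 and 1.71 CPM in CTRL. Its groups did not overlap, and the spread within each was small beside the distance between them. The log2 change was 1.07 (SE 0.302; edgeR adjusted p of 0.335), with an adjusted p of 0.0481 in the authors' deposited table. With Sertoli list scaling, which sets the median Sertoli marker equal in all libraries, it was 0.65.

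Alx1, an aristaless-like factor of the craniofacial mesenchyme and the 1 member marked lower, had 4.21 and 5.48 CPM in Znhit1_KO, against 8.39 and 15.0 CPM in CTRL. The groups did not overlap, although the CTRL libraries differed from each other by more than the Znhit1_KO libraries did. The log2 change was -1.27 (SE 0.358; edgeR adjusted p of 0.336), with an adjusted p of 0.0181 in the authors' deposited table. Leaving out CTRL replicate 2 gave -0.79, and leaving out CTRL replicate 1 gave -1.63. Alx1 shares exon sequence with the non-coding gene Gm17028 on the same strand, which stood at 0 and 0.562 CPM in Znhit1_KO and 0.963 and 1.52 CPM in CTRL, so reads of these 2 genes could not be told apart there.

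**Figure D2:**
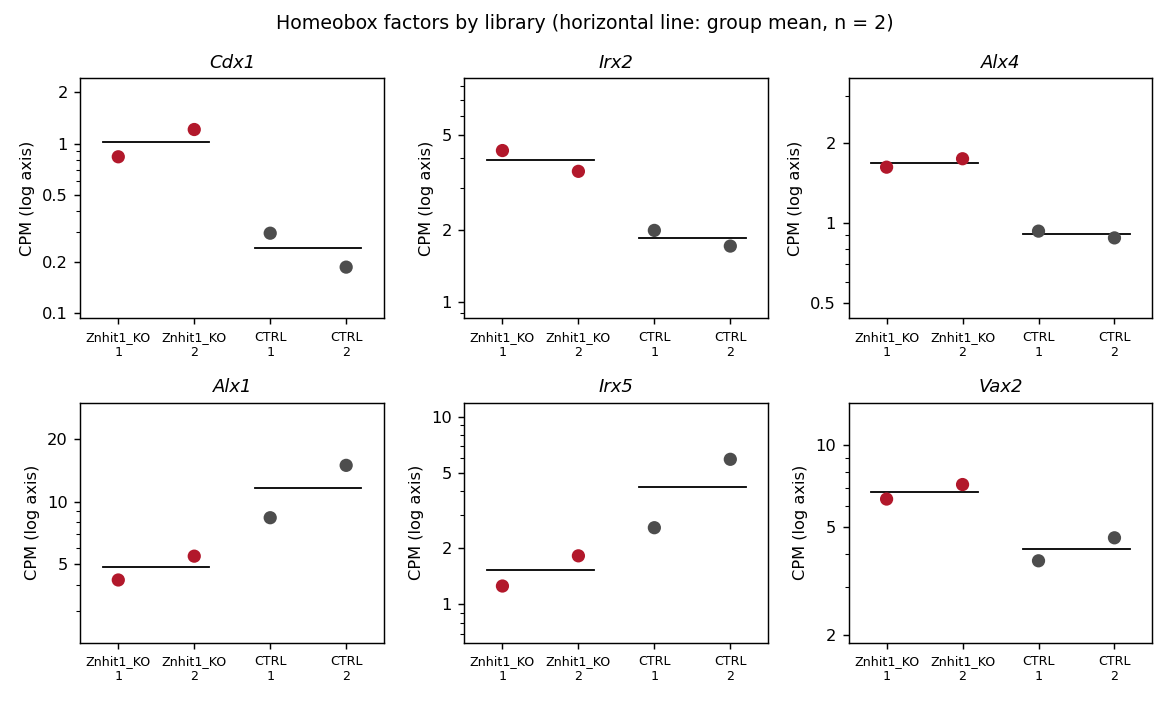
Expression of 6 members in CPM on log axes, with red points for Znhit1_KO, grey points for CTRL and a line at each group mean (n = 2). The red and grey points do not overlap in any panel: red is higher for Cdx1, Irx2, Alx4 and Vax2 and lower for Alx1 and Irx5.

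Alx4, singled out after its values were seen and known as a factor of limb and skull, pointed the other way from Alx1, with 1.62 and 1.74 CPM in Znhit1_KO, against 0.933 and 0.880 CPM in CTRL. The groups did not overlap, and the log2 change was 0.89 (SE 0.343; edgeR adjusted p of 0.458).

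The Iroquois genes lie in a pair of genomic clusters, and Irx1, Irx3, Irx4 and Irx6 are given to complete them. On chromosome 13, Irx1 followed Irx2 at 0.658 and 0.799 CPM in Znhit1_KO, against 0.511 and 0.358 CPM in CTRL, while Irx4 had 4 counts in Znhit1_KO replicate 1 and 0 elsewhere. On chromosome 8, Irx5 had 1.25 and 1.81 CPM in Znhit1_KO, against 2.56 and 5.93 CPM in CTRL, a log2 change of -1.47 (SE 0.497; edgeR adjusted p of 0.407). In the authors' deposited table its adjusted p is 0.0613, and it is not marked. Both Znhit1_KO libraries were below both CTRL libraries, but the CTRL libraries were themselves far apart, and without CTRL replicate 2 the change was -0.74. Irx3, its neighbour, overlapped fully, with 1.37 and 0.425 CPM in Znhit1_KO and 1.23 and 0.569 CPM in CTRL. The expression of Irx6 was at most 0.194 CPM in any library.

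Members with known roles in gonad, germ line or genital ducts pointed both ways, and none passed the test. With TMM scaling the log2 change was positive for Lhx9, Emx2, Six4, Lhx2, Lhx1, Msx2 and Pax8 and negative for Lhx8, Msx1, Dlx6 and Otx2. Lhx9 stood at 2.54 and 4.72 CPM in Znhit1_KO, against 2.01 and 2.16 CPM in CTRL, a log2 change of 0.80 (SE 0.392). Both Znhit1_KO libraries lay above both CTRL libraries, but the change was 0.25 without Znhit1_KO replicate 2 and 1.15 without Znhit1_KO replicate 1. Emx2 had 0.931 and 0.375 CPM in Znhit1_KO, against 0.244 and 0.0389 CPM in CTRL. Its groups did not overlap, but the log2 change of 2.19 (SE 0.980) was 1.35 without Znhit1_KO replicate 1, 1.42 without CTRL replicate 2 and 4.03 without CTRL replicate 1. Six4 overlapped between groups, with 8.74 and 6.17 CPM in Znhit1_KO and 6.59 and 4.53 CPM in CTRL. Lhx2 had 16.3 and 12.6 CPM in Znhit1_KO, against 11.5 and 8.53 CPM in CTRL, a log2 change of 0.53 (SE 0.262) that was 0.30 without Znhit1_KO replicate 1 and 0.33 without CTRL replicate 2. For Six4, Six5 and Lhx2 the fitted log2 change lay between 0.42 and 0.68 with TMM scaling; with Sertoli list scaling it lay between -0.0081, for Six4, and 0.26, for Six5. The median log2 change of the Sertoli markers was 0.42.

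Of the more abundant members, Six5 stood at 24.6 and 17.7 CPM in Znhit1_KO, against 16.4 and 9.99 CPM in CTRL. Vax2 had 6.35 and 7.18 CPM in Znhit1_KO, against 3.76 and 4.57 CPM in CTRL, with tight replicates and a log2 change of 0.70 (SE 0.258; edgeR adjusted p of 0.446). Lhx6, a regulator of interneurons, overlapped between groups with 5.81 and 4.31 CPM in Znhit1_KO and 5.52 and 2.53 CPM in CTRL. Nkx1-1 also overlapped, with 3.27 and 3.51 CPM in Znhit1_KO and 3.45 and 4.07 CPM in CTRL.

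Lhx8 was among the 8 members lower without overlap. It stood at 3.02 and 3.08 CPM in Znhit1_KO, against 3.97 and 3.996 CPM in CTRL, a log2 change of -0.38 (SE 0.264; edgeR adjusted p of 0.654). On the authors' TPM scale it had 4.51 and 4.79 in Znhit1_KO, against 6.73 and 4.96 in CTRL, still without overlap. Dlx1, a distal-less factor of forebrain interneurons, had 3.31 and 3.55 CPM in Znhit1_KO, against 5.65 and 4.39 CPM in CTRL, and shares exon sequence with Dlx1as. No source states whether counting used strand, and reads of overlapping genes cannot be told apart. Msx1, a Bmp-responsive factor, had 0.209 and 0.115 CPM in Znhit1_KO, against 0.363 and 0.257 CPM in CTRL. Its relative Msx2 pointed the other way, with 1.18 and 0.727 CPM in Znhit1_KO, against 0.652 and 0.553 CPM in CTRL. Pax9 changed order with the unit: it had 1.94 and 1.25 CPM in Znhit1_KO, against 2.05 and 2.51 CPM in CTRL, but 1.52 and 1.37 TPM in Znhit1_KO, against 1.27 and 1.36 TPM in CTRL, and its exons overlap those of Slc25a21.

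Several Nkx genes had higher values at very low levels. Nkx2-5, a heart factor, had 0.5001 and 0.857 CPM in Znhit1_KO, against 0.289 and 0.117 CPM in CTRL, a log2 change of 1.74 (SE 0.662; edgeR adjusted p of 0.454). Nkx2-3, a factor of spleen and gut, had 0.570 and 0.281 CPM in Znhit1_KO, against 0.19996 and 0 CPM in CTRL. Nkx2-6 and Nkx3-2 had between 0.0864 and 0.215 CPM in Znhit1_KO and between 0 and 0.0593 CPM in CTRL. Of the 10 Nkx genes tested, 8 had a positive log2 change, against 53.1% of all genes, and 7 were higher without overlap, against 21.8% of all genes. These 7 include Nkx2-3 and Nkx2-6, which were at 0 in CTRL replicate 2. They also include Nkx3-2, with counts of 34 and 12 in Znhit1_KO and 4 and 7 in CTRL. Such genes could pass the count filter through their Znhit1_KO libraries, so nothing is read from the distance to the shares of all genes. Emx1 showed the same order of groups at up to 0.166 CPM, and Pax3 the reverse, with 0.0823 and 0 CPM in Znhit1_KO, against 0.163 and 0.319 CPM in CTRL. Six2, a factor of kidney progenitors, had 1.33 and 0.763 CPM in Znhit1_KO, against 0.652 and 0.382 CPM in CTRL. In these tables the value 4 was over-represented: in CTRL replicate 1 it was held by 1109 genes, while the adjacent values were held by 736.0 on average, and values of a few counts are uncertain. Dlx6 and Otx2 lay at or under 0.133 CPM in each library and overlapped between groups.

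**Figure D3:**
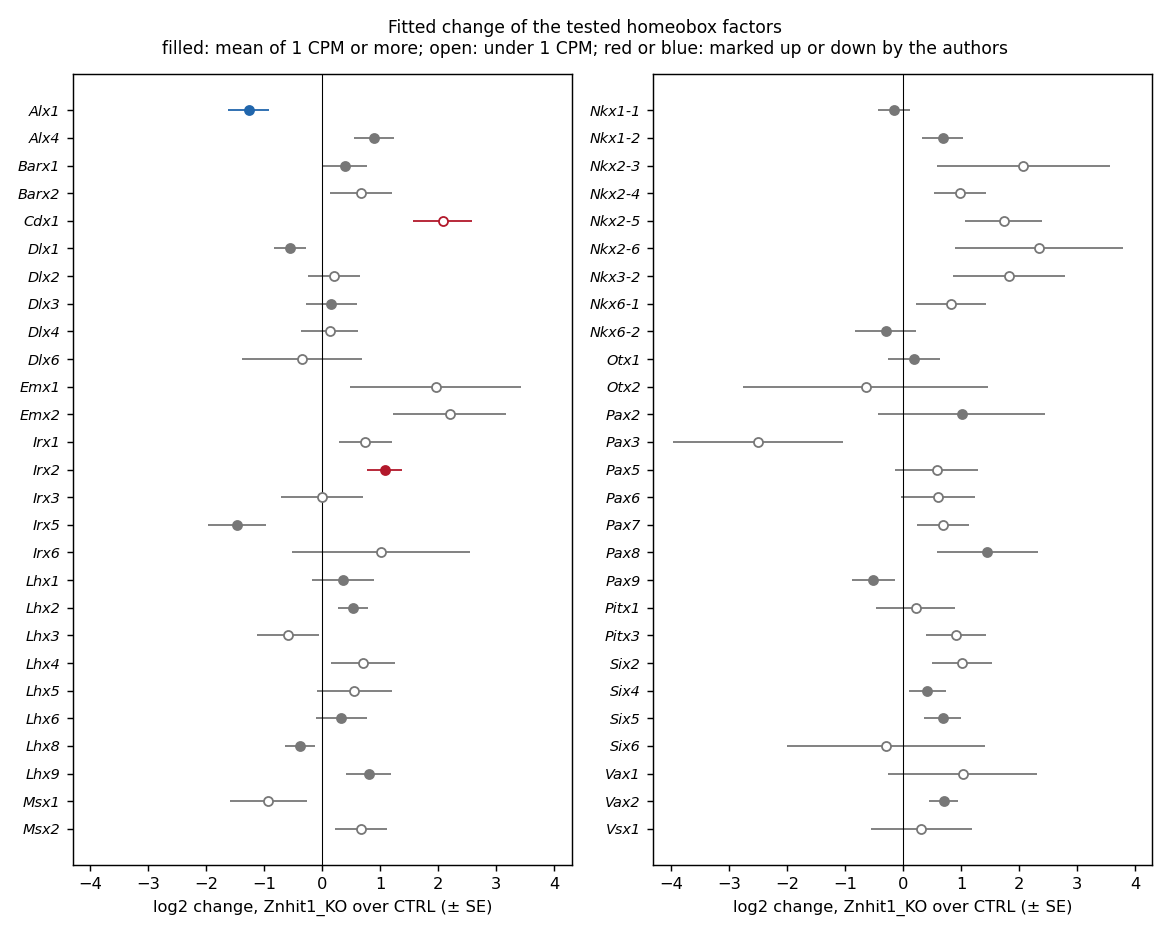
Fitted log2 change of Znhit1_KO over CTRL with its standard error for 54 of the 59 tested members, in alphabetical order. Filled points have a mean of 1 CPM or more and open points less, and red or blue marks members marked up or down in the authors' deposited table; most points lie right of 0, and the widest bars belong to scarce genes.

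A positive log2 change was found in 44 of the 59 tested members (74.6%), against 53.1% of all genes tested, and a negative one in 15 (25.4%), against 46.9%. Both Znhit1_KO libraries lay above both CTRL libraries for 27 members (45.8%), against 21.8% of all genes, and below both for 8 (13.6%), against 21.3%. A log2 change of at least 1 was reached by 15 members upward (25.4%), against 4.79% of all genes, and by 3 downward (5.08%), against 8.88%. The median log2 change was 0.58 over the 59 and 0.03 over all genes tested. Among the 25 members with a mean of at least 1 CPM it was 0.40, against 0.02 over all genes at that level, and among the 34 tested below it, 0.68 against 0.07. With Sertoli list scaling, which shifts all genes nearly alike, the median of the members was 0.21 and that of all genes -0.39. The median of the members exceeded that of all genes by 0.55 with all libraries, by 0.34 without Znhit1_KO replicate 1 and by 0.33 without CTRL replicate 2. The median of the members was 0.27 without Znhit1_KO replicate 1, 0.37 without CTRL replicate 2 and 0.81 without CTRL replicate 1.

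By mean relative log2 level, the libraries ranked alike in the members and in several other lists. The mean relative log2 level of the 59 members was 0.328 and 0.159 in Znhit1_KO replicates 1 and 2 and -0.0102 and -0.477 in CTRL replicates 1 and 2. For the 20 Sertoli markers it was 0.338 and 0.0579 in Znhit1_KO and -0.143 and -0.253 in CTRL, and for the 9 spermatocyte markers -1.48 and -0.556 in Znhit1_KO and 0.440 and 1.599 in CTRL. The order of libraries was the same in members and Sertoli markers and the reverse in spermatocyte markers. The 3 tested duct markers, the partner proteins of homeobox factors and the other homeobox genes had the members' order too, so it was not particular to Sertoli markers. Rhox5 and Rhox8 are in both the Sertoli list and the list of other homeobox genes. The order depended on the measure. By summed CPM, CTRL replicate 2 exceeded CTRL replicate 1 for Sertoli markers (7991 against 7771), duct markers (1.94 against 1.75) and partner proteins (1186 against 1175). For the other homeobox genes Znhit1_KO replicate 2 had the lowest sum, 1644 CPM. Of the 59 members, 11 (18.6%) had this order of libraries themselves, among them Irx2, Lhx2, Six2, Six5 and Emx2, against 8.29% of all genes tested. Another 9 (15.3%), among them Alx4, Cdx1, Emx1, Irx1 and Nkx2-5, ranked the libraries as Znhit1_KO replicate 2, Znhit1_KO replicate 1, CTRL replicate 1 and CTRL replicate 2 from high to low, against 4.16% of all genes, an order that no marker list had. The spermatocyte order was shown by 4 (6.78%), Alx1, Irx5, Lhx3 and Lhx8, against 10.4% of all genes. A further order was Znhit1_KO replicate 2, Znhit1_KO replicate 1, CTRL replicate 2 and CTRL replicate 1 from high to low. It was shown by 4 members (6.78%), among them Lhx9 and Vax2, against 5.27% of all genes. The Leydig, macrophage and endothelial markers had that order too.

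**Figure D4:**
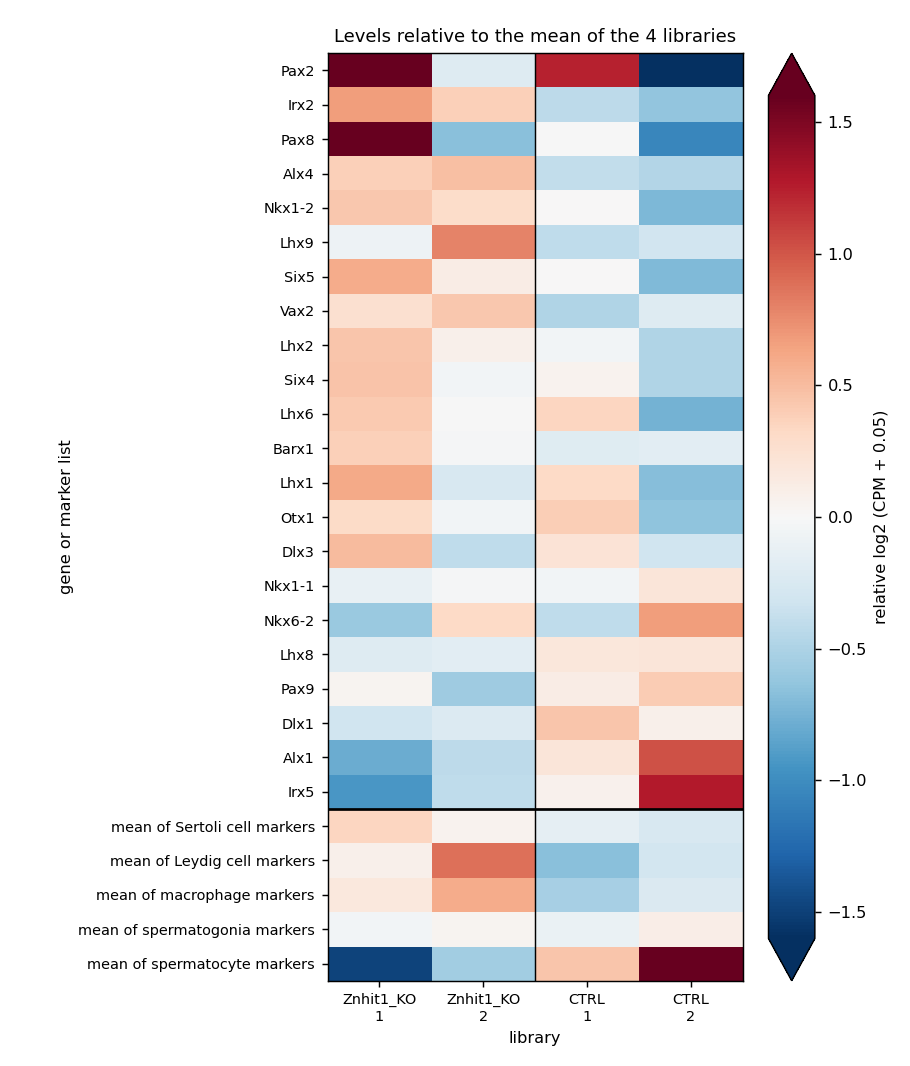
Level of 22 members with a mean of at least 1 CPM and mean level of 5 marker lists in each library, as relative log2 (CPM + 0.05), with the Znhit1_KO libraries left of the CTRL libraries. Red is above and blue below the mean of the 4 libraries; Alx1 and Irx5 follow the spermatocyte row, and Lhx2 and Six5 the Sertoli row.

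Several members, among them the duct genes Pax2 and Pax8, differed strongly between replicates. Of the 49 members with a mean of at least 0.2 CPM, 5 were at least 2 times higher in replicate 1 than in replicate 2 of both groups. These were Pax2, Pax8, Vax1, Emx2 and Irx3, and 1 other member was at least 2 times higher in replicate 2 of both groups. Pax2, Vax1 and Irx3 are named here after their values were seen. The share over all genes was not computed, and deviations of same-numbered libraries correlated at 0.42 over all genes, so nothing is read from the count. Pax2 had 4.16 and 0.857 CPM in Znhit1_KO replicates 1 and 2, against 2.41 and 0.0779 CPM in CTRL replicates 1 and 2. Pax8 had 4.05 and 0.727 CPM in Znhit1_KO, against 1.18 and 0.553 CPM in CTRL. For both, CTRL replicate 1 exceeded Znhit1_KO replicate 2, and the groups overlapped. The log2 change of Pax8 was 1.46 (SE 0.869) and -0.30 without Znhit1_KO replicate 1. Lhx1 leaned the same way, with 1.90 and 1.02 CPM in Znhit1_KO and 1.54 and 0.748 CPM in CTRL. Of 10 epididymis and efferent duct markers, 6 were at 0 in all 4 libraries, among them the epididymal secretory genes Lcn8, Lcn9 and Crisp1, and the summed level was 3.34 and 2.22 CPM in Znhit1_KO and 1.75 and 1.94 CPM in CTRL. Cdh16, a cadherin of kidney and duct epithelium, had 0.931 and 0.295 CPM in Znhit1_KO, against 0.19996 and 0.0701 CPM in CTRL. Aqp1, also on the duct list, did not follow it, with 0.937 and 0.922 CPM in Znhit1_KO and 0.659 and 1.11 CPM in CTRL, and Cldn10 was at most 0.076 CPM and at 0 in CTRL replicate 1. Cdh16 was singled out after its values were seen. Whether duct tissue differed between the dissections was not tested.

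**Figure D5:**
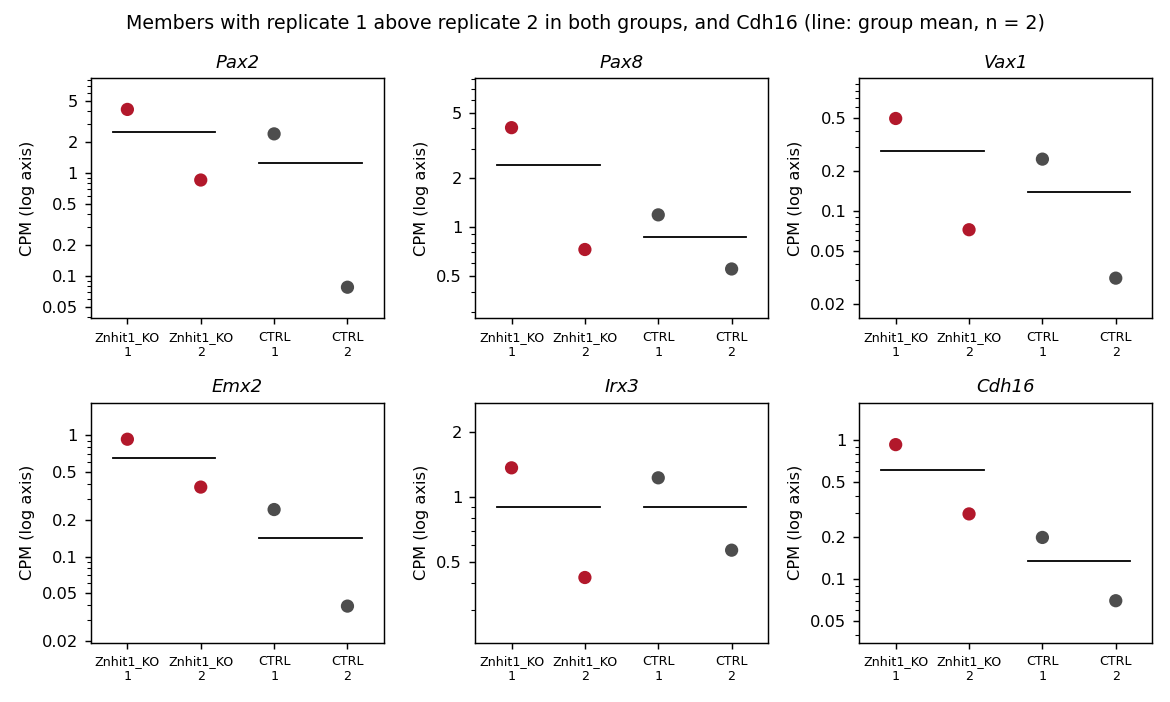
CPM on log axes of the 5 members at least 2 times higher in replicate 1 than in replicate 2 of both groups, and of the duct marker Cdh16, with red for Znhit1_KO, grey for CTRL and a line at each group mean (n = 2). For Pax2, CTRL replicate 1 lies above Znhit1_KO replicate 2, and CTRL replicate 2 lies lowest.

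Homeobox genes outside the rule and the Hox clusters were examined beside the members, with no test of the difference. Of 104 such genes found, 85 were tested, and the median log2 change was 0.26. It was positive for 59 (53.1% of all genes) and negative for 26 (46.9% of all genes). The edgeR test called 0 of the 85, and 11 had an unadjusted p under 0.05 (10.7% of all genes). The authors mark 1 of the 85 up (0.277% of all genes) and 1 down (3.22% of all genes). Pou5f2, a POU factor of male germ cells, had 0.0633 and 0.158 CPM in Znhit1_KO, against 0.533 and 2.66 CPM in CTRL. The most abundant of these genes, Adnp, Cux1, Zhx3 and Pou2f1, had log2 changes of 0.16, -0.29, 0.19 and 0.17, none marked. Proteins that work with homeobox factors include the LIM-domain binder Ldb1, the EYA cofactors of the sine oculis family and the TLE family. Of their genes 28 were tested, with a median log2 change of 0.21. The change was positive for 21 (53.1% of all genes) and negative for 7 (46.9% of all genes). The edgeR test called 0 of them, 4 had an unadjusted p under 0.05 (10.7% of all genes), and none is marked by the authors. Tle5 had 223.5 and 217.4 CPM in Znhit1_KO, against 158.1 and 157.3 CPM in CTRL, a log2 change of 0.48 (SE 0.135; edgeR adjusted p of 0.334). Tle3 (0.25, SE 0.168), Ldb1 (0.38, SE 0.143) and Ssbp3 (0.09, SE 0.151) had smaller log2 changes.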

How the data were processed

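PolyA RNA of postnatal day 14 testes was sequenced in 4 libraries, 2 per genotype. Per the submitters' processing notes, cutadapt 2.5, HISAT2 2.2.1, StringTie 2.2.1, DESeq2 1.38.3 and the mm10 build were used, with no roles or settings given. The authors deposited a table of whole-number estimated counts per gene and a table of TPM. The authors' deposited comparison table holds normalised signal values, log2 fold changes, a test score and p-values. The count totals lie well above the minimum read number in the labels' protocol, and the value 4 is over-represented, so the counts are taken as estimates whose sampling error is not known. Columns were matched to libraries by genotype initial and replicate number.

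Counts were filtered with filterByExpr, scaled by TMM and tested with edgeR 4.0.16 (quasi-likelihood F-test, two-sided, Benjamini-Hochberg over 24116 genes, threshold 0.05) in R 4.3.3, with a common biological coefficient of variation of 0.349. As alternatives, limma 3.58.1 and DESeq2 1.42.0 were run. The fit was tested on simulated data with 200 genes changed. With 2 libraries against 2, an exact permutation test of a single value cannot go below a p of 0.333, so none is given. In each pair of replicates, 3.00% (Znhit1_KO) and 2.89% (CTRL) of compared counts were equal, and all libraries were kept as separate replicates. P-values measure only the spread between these libraries.

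The members and all gene lists were chosen with earlier results of these data known. Members named with full values are those marked by the authors or called by edgeR, those with no overlap between groups and a log2 change of 1 or more in either direction, the 10 of highest mean CPM, and 15 with known roles in gonad, germ line or genital ducts. Of other lists, genes marked by the authors and the 4 most abundant are named. Some genes that meet these rules are counted but not reported here. Positions and exon overlaps are from GENCODE M21, and promoter windows from RefSeq.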

Additional observations from a re-analysis of the deposited data

How the results depend on the processing

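The edgeR test called 0 genes and 0 members, and likewise with DESeq2 size factors, total count scaling, Sertoli list scaling, no filter on low counts and limma-voom. DESeq2 called 1027 of 25236 genes and 4 of 62 members. With the replicate block, 2737 of 24116 genes and 7 of 59 members were called. The 7 include Alx1, Cdx1, Emx2, Irx2, Irx5 and Six5, and nothing is read from their number. The labels give no pairing, and deviations of same-numbered libraries correlated at 0.42 over all genes and 0.07 over the members, from 2 pairs. With 1 library left out, 0 to 754 genes and 0 to 3 members were called, the highest without CTRL replicate 1 (among them Alx1 and Nkx2-3); the lone library is then assumed to vary like the others. The members' median log2 change was 0.58, 0.21 with Sertoli list scaling, and 0.27 to 0.81 with 1 library left out. Of 296 alternative values of named members, 10 changed sign. Most settings called 0 of all genes, which fixed the side of the threshold there, so it is not counted. A kept direction does not mean a kept size, as for Nkx2-3 above. With Sertoli list scaling the log2 changes of Lhx1, Lhx6 and Six4 were -0.084, -0.066 and -0.0081. With 1 library left out, the log2 change ranged between -1.27 and 0.32 for Dlx6, -0.20 and 0.96 for Lhx1, -0.12 and 1.00 for Lhx6, -6.29 and 0.31 for Otx2, and -0.30 and 2.17 for Pax8. That of Six5 ranged between 0.37 and 1.08, of Six4 between 0.11 and 0.71, of Six2 between 0.52 and 1.45 and of Msx2 between 0.24 and 0.93. The cause was not tested. Of the 59 tested members, 34 had a mean under 1 CPM, where levels rest on few counts, and 6 were at 0 in at least 1 CTRL library.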

Other observations

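Genes within 100 kb of Alx1, Irx2 and Cdx1, all marked in the authors' deposited table, were read from the same fit. Next to Irx2, Gm20554 had 0.247 and 0.274 CPM in Znhit1_KO, against 0.148 and 0.234 CPM in CTRL. Its groups did not overlap, and its log2 change was 0.45 (SE 0.628). Next to Alx1, Lrriq1 had 4.82 and 6.74 CPM in Znhit1_KO, against 13.5 and 21.4 CPM in CTRL, a log2 change of -1.59 (SE 0.328), and the authors' deposited table marks it down. Next to Cdx1, all 5 tested genes overlapped between groups: Csf1r had a log2 change of 0.67 (SE 0.529), Slc6a7 of 0.45 (SE 0.591), Camk2a of 0.35 (SE 0.661), Pdgfrb of 0.30 (SE 0.279) and Hmgxb3 of 0.10 (SE 0.158). Among genes that share exon sequence with a member, Gm12462, which overlaps Pax5, had 0.158 and 0.274 CPM in Znhit1_KO, against 2.87 and 6.26 CPM in CTRL, a log2 change of -4.40 (SE 0.582). The gene 4930447C04Rik, which overlaps Six6, had 65.6 and 70.5 CPM in Znhit1_KO, against 100.4 and 102.2 CPM in CTRL.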
